A study of Homo sapiens with 8 samples.

Results

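The transcripts of 10 genes that are widely used as markers of breast cancer stem cells were followed in BT-549, an established human triple-negative breast cancer cell line, under inhibition of the leukemia inhibitory factor receptor (LIFR), inhibition of histone deacetylases, or both. The genes were the surface glycoproteins CD44, CD24 and PROM1 (CD133), the aldehyde dehydrogenases ALDH1A1 and ALDH1A3, the transcription factors KLF4, SOX9, SOX2 and POU5F1 (OCT4), and the Polycomb gene BMI1. They were chosen by symbol, and all 10 were listed among the 23228 genes of the count tables. The 8 RNA-seq libraries fell into 4 groups of 2: cells given the vehicle DMSO, cells given the LIFR inhibitor EC359 at 100 nM, cells given the histone deacetylase inhibitor (HDACi) vorinostat at 10 µM, and cells given EC359 together with vorinostat, called the combination here. Total RNA was taken after 24 h in every group. The only model was this 1 cell line, and the labels do not say whether the libraries of a group came from separate cultures, so p-values measure the spread between these libraries, which may be technical.

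Breast cancer stem cells are tumor cells able to self-renew and to start new tumors. In breast tumors they are commonly isolated as cells with much CD44 and little CD24 on their surface, or by high aldehyde dehydrogenase activity, to which ALDH1A1 and ALDH1A3 contribute. CD44 is the main receptor for hyaluronan, a sugar polymer of the matrix around cells, and CD24 is a small mucin-like protein held in the membrane by a lipid anchor. KLF4, SOX2 and POU5F1 belong to the factors that reprogram differentiated cells to pluripotency, SOX9 governs progenitor states in several epithelia including the breast, and BMI1 is a subunit of Polycomb repressive complex 1, which silences the CDKN2A tumor suppressor locus in stem cells. LIF, the ligand of the receptor that EC359 blocks, is best known for keeping mouse embryonic stem cells undifferentiated, and KLF4 is among the genes its signal acts on there.

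Upstream sequences are shown for 3 of the markers whose transcripts differed between groups, since the treatments act on chromatin and on signaling to transcription factors. The letters come from the RefSeq promoter table (assembly GRCh38.p14), which held at least 1 entry for 8 of the 10 genes. SOX9 and POU5F1 had no entry. Each window holds the 250 bases before an annotated transcription start, written 5′ to 3′ on the gene's strand, and capitals mark GC boxes (GGGCGG on either strand), the site that SP and KLF family factors can bind. The KLF4 window lies at chr9:110252051-110252300 on the minus strand of GRCh37, found by an exact match. The first CD24 window lies at chr6:106975628-106975877 on the minus strand of GRCh38.p14, and it was not matched on GRCh37. For CD44 only a stretch of 30 bases around its GC boxes is shown, at chr11:35160543-35160572 on the plus strand of GRCh37, upstream of the RefSeq start and inside the first exon of a longer annotated transcript.
KLF4: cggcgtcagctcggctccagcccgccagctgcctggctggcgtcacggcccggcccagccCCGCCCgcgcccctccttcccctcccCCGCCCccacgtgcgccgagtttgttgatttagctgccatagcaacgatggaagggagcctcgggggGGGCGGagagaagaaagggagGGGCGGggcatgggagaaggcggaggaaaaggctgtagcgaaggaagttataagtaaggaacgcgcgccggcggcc
CD24: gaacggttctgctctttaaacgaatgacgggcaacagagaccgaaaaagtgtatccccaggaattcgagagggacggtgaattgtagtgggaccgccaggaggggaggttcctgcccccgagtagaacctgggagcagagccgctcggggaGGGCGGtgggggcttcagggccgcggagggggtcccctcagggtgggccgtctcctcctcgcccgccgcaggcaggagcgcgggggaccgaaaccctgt
CD44: gcacgGGGCGGgggcagaggggcCCGCCCg
The KLF4 window held 4 GC boxes, 25 CpG dinucleotides and 69.2% G or C, the CD24 window 1 GC box, 20 CpG and 65.6%, and the whole CD44 window 2 GC boxes, 15 CpG and 62.4%. Over all 35093 promoters of the table the median was 11 CpG and 58% G or C, and 42.6% held at least 1 GC box. Neither the STAT motif TTCNNNGAA nor the TATA motif TATAAA, searched on both strands, occurred in any window of the 8 markers. These motifs were found in 6.57% and 10.7% of all promoters and none of the 3 motifs contains another. A match describes the letters only, and a missing motif says nothing of a factor.

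The libraries held 19069450 to 24759041 reads counted on genes, and 13694 genes passed the filter on low counts. Mesenchymal VIM and FN1 were abundant in every group, at mean levels of 2111 to 9376 and 1959 to 4486 normalized CPM (counts scaled to a common library size), whereas the luminal adhesion gene CDH1 stayed between 0.258 and 1.34 and the hormone receptor gene PGR had at most 1 read in any library. Of 8 marker genes of blood, endothelial, liver and red cells, 3 passed the filter, and the 8 summed to 20 to 58 reads in the vehicle libraries, 11 to 101 with EC359, 30 to 87 under vorinostat and 16 under the combination. The leukocyte gene PTPRC was called lower under the combination than with vehicle (adjusted p = 0.0025, edgeR) and than with EC359 (0.0073), with 15 and 14 reads in the vehicle libraries, 14 and 4 with EC359 and 0 in both combination libraries. The highest sums with EC359 and vorinostat held 71 and 57 reads of the liver gene ALB. The part of these reads in the markers' results was not tested. A change is called here when the adjusted p-value of edgeR's quasi-likelihood test (Benjamini-Hochberg over the 13694 genes) was under 0.01 and the fold change was above 2 in either direction (1 on the log2 scale). "Rose" and "fell" are kept for such changes, and other differences are given as values. The 3 comparisons with vehicle share its libraries, and both single-drug groups enter more than 1 comparison. In RNA from whole cultures, a change in the share of cells with a marker and a change in its RNA per cell cannot be told apart.

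The 10 markers split into 4 with 341 to 53946 reads a library, CD44, CD24, KLF4 and SOX9, and 6 with at most 33 reads in any library. Of the 10, 7 passed the filter on low counts, the exceptions being ALDH1A3, SOX2 and POU5F1. Each of the 4 well-measured markers answered the drugs in its own way. In mean level, CD44 was above and CD24 below vehicle with EC359 alone, the reverse held with vorinostat alone, and both were above vehicle under the combination. KLF4 was below vehicle under each drug alone and above it under both, and SOX9 was highest under both. Of the 7 tested markers, the number called was 1 for EC359 against vehicle (3.67% of all tested genes were called), 1 for vorinostat against vehicle (30.1%), 2 for the combination against vehicle (34.8%), 2 for the combination against vorinostat (4.25%) and 3 for the combination against EC359 (33.7%). At an adjusted p under 0.01 with no fold limit the numbers were 3 (7.82% of all tested genes), 4 (52.1%), 4 (56.4%), 3 (13.7%) and 3 (55.8%) in the same order. The share of all genes called under EC359 was itself loosely fixed, since in place of 502 genes 924 were called without EC359 replicate 2, 304 and 298 without vehicle replicate 1 or 2, and 233 in a fit of the 4 libraries compared. For the combination against vorinostat, 285 and 300 genes in place of 582 were called without vorinostat replicate 1 or 2, and 340 and 375 without combination replicate 1 or 2.

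**Figure D1:**
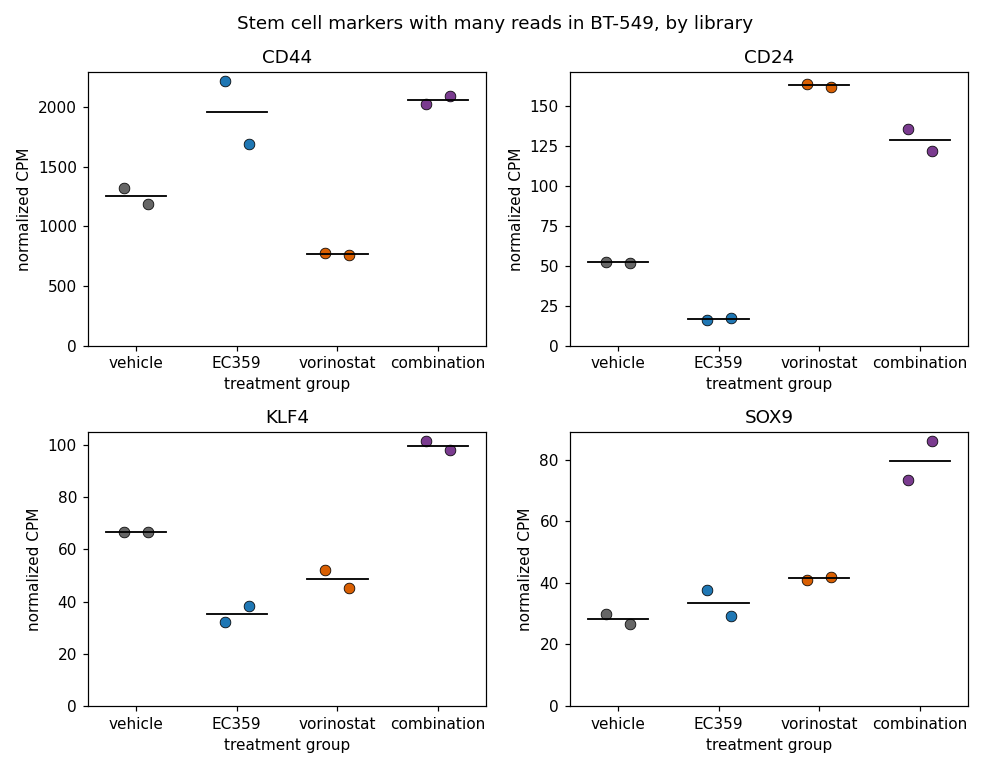
Normalized CPM (y axis, from 0) of CD44, CD24, KLF4 and SOX9 in each library (points) of the 4 treatment groups (x axis), with group means as lines. CD44 was lowest and CD24 highest under vorinostat, and KLF4 and SOX9 were highest under the combination, where their 2 libraries lay above all 6 others.

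CD44 had the most reads of the markers. Its normalized CPM was 1325 and 1192.8 in the vehicle libraries, 2224.5 and 1696.4 with EC359, 775 and 763 under vorinostat, and 2027.5 and 2092.5 under the combination. Every vorinostat library lay below every vehicle library, every EC359 and combination library lay above, and the combination libraries lay inside the range of EC359. Per kilobase of its canonical transcript (5431 bases, 18 exons), the mean level of CD44 was 232 CPM with vehicle and 142 with vorinostat, higher than 98.3% and 96.3% of the 11753 tested genes with a known length. It took 0.121% to 0.134% of all gene reads with vehicle and 0.175% to 0.218% with EC359. The gene spans chr11:35160429-35253949 on the plus strand of GRCh37. The counts are per gene and do not separate the standard form of CD44 from its variant exon forms, which differ between epithelial and mesenchymal cells.

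CD44 rose when EC359 was added to vorinostat, by 1.42 ± 0.12 on the log2 scale (± standard error), a 2.68-fold difference between means of 769 ± 7.98 and 2060 ± 45.9 normalized CPM (SD, n = 2; adjusted p = 8.4e-05, edgeR). This was the one comparison in which it was called, and over 16 alternative fits the log2 difference lay between 1.33 and 1.42. Against vehicle, CD44 differed by -0.71 with vorinostat (adjusted p = 0.00072, edgeR), by 0.64 with EC359 (adjusted p = 0.0074) and by 0.71 with the combination (adjusted p = 0.00064), each short of the fold limit. The EC359 value was the least settled of these, with an adjusted p from 1.4e-06 to 0.085 over the alternative fits and a log2 difference of 0.44 without EC359 replicate 1. The combination and EC359 alone did not differ beyond their spread, with a log2 difference of 0.07 ± 0.12 (adjusted p = 0.62, edgeR), although without EC359 replicate 1 it was 0.27 with an adjusted p of 0.0049.

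CD24 moved the other way under each single drug, and by more. Its normalized CPM was 52.2 and 51.9 with vehicle, 16.2 and 17.3 with EC359, 164 and 162 under vorinostat, and 135 and 121 under the combination. The 4 groups did not overlap, and replicate libraries lay close together beside the gaps between groups. CD24 fell under EC359 by 1.64 on the log2 scale to 0.322 of the vehicle level (adjusted p = 1.3e-05, edgeR) and rose 3.13-fold under vorinostat, by 1.64 ± 0.10 (adjusted p = 1.2e-06). It rose 2.47-fold under the combination, and it was 7.67-fold higher there than with EC359 alone, a log2 difference of 2.94 ± 0.10 (adjusted p = 1e-07, edgeR). Between the combination and vorinostat the log2 difference was -0.34 ± 0.09 (adjusted p = 0.024, edgeR), with adjusted p-values from 0.0021 to 0.12 over the alternative fits. All calls for CD24 in these comparisons held in every alternative fit that was run.

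CD24 has no gene of that name in the GRCh37 annotation used here, which instead holds 4 annotated copies of it (CD24P1, CD24P2, CD24P4 and CD24P5), all pseudogenes by name. The study counted reads on an annotation that does list CD24. Reads aligned at more than 1 place were left out of the counts, so copies can lower its level, and since the locus was not at hand its length and level per kilobase are not given.

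The opposite movements of CD44 and CD24 gave a wide range to the ratio of their reads, which needs no scaling between libraries. There were 25.4 and 23.0 CD44 reads for each CD24 read with vehicle, 137 and 98.1 with EC359, 4.73 and 4.73 under vorinostat, and 15.0 and 17.2 under the combination. EC359 thus had the highest and vorinostat the lowest ratio, and no 2 groups overlapped. The mean log2 ratio was 4.59 ± 0.10 with vehicle, 6.86 ± 0.34 with EC359, 2.24 under vorinostat, and 4.01 ± 0.14 under the combination (SD, n = 2). That is a ratio 4.80-fold above vehicle with EC359, 5.11-fold below it with vorinostat and 1.50-fold below it with the combination. Adding EC359 to vorinostat moved the log2 ratio up by 1.77, less than the 2.26 between EC359 and vehicle, and this difference between the steps was not tested. The ratio is read counts of 2 genes of unlike length, so its value does not give the ratio of molecules, and it is not the surface phenotype of any cell.

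**Figure D2:**
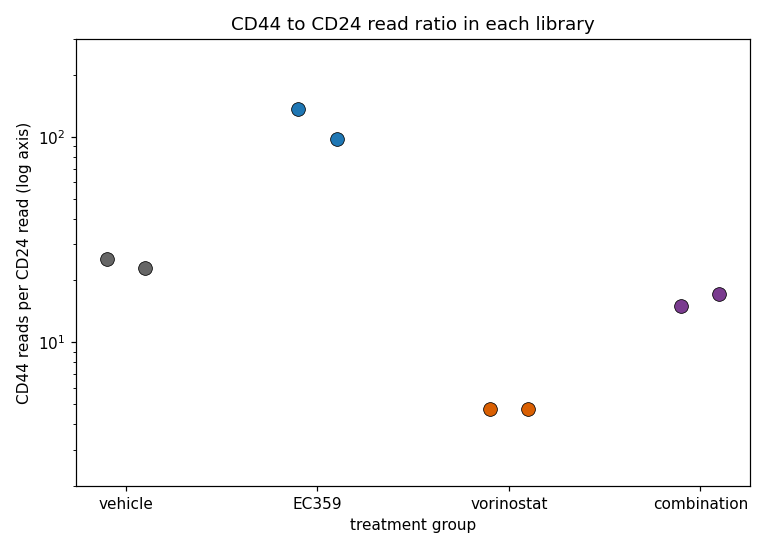
CD44 reads per CD24 read (y axis, log scale) in the 2 libraries of each treatment group (points, x axis). The ratio was 98.1 to 137 with EC359, 23.0 to 25.4 with vehicle, 15.0 to 17.2 with the combination and 4.73 with vorinostat.

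KLF4, a zinc-finger factor that both drives and restrains growth depending on the tissue, was below vehicle under each drug alone and above it under both. Its normalized CPM was 66.8 and 66.8 with vehicle, 32.1 and 38.5 with EC359, 52.3 and 45.4 under vorinostat, and 102 and 98.0 under the combination. No 2 groups overlapped. KLF4 rose when vorinostat was added to EC359, by 1.50 ± 0.12 on the log2 scale, 2.83-fold (adjusted p = 5.5e-06, edgeR), and this call held in every alternative fit. It rose 2.04-fold when EC359 was added to vorinostat, from 48.8 ± 4.91 to 99.8 ± 2.50 normalized CPM (SD, n = 2), a log2 difference of 1.03 ± 0.12 (adjusted p = 0.00041, edgeR). That difference sits at the fold limit: it was 0.996 with relative log expression (RLE) scaling, 0.996 with DESeq2, 0.943 with total-count scaling, 0.993 without the filter on low counts, 0.893 without vorinostat replicate 2 and 0.969 without combination replicate 1.

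Against vehicle no change of KLF4 reached the fold limit. The log2 difference was -0.92 ± 0.12 with EC359 (adjusted p = 0.00091, edgeR), -0.45 ± 0.12 with vorinostat (adjusted p = 0.0076) and 0.58 ± 0.12 with the combination (adjusted p = 0.0017). Without EC359 replicate 2 the first of these was called, at -1.05 (adjusted p = 1.2e-05, edgeR; 9e-09 to 0.021 over all alternative fits). The gene lies at chr9:110247133-110252763 on the minus strand of GRCh37, and 9.44% of its canonical transcript (2936 bases, 5 exons) is overlapped by an unnamed gene on the opposite strand. Whether strand was used in counting is not given in the sources used here, and without it the reads of these neighbours cannot be told apart.

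SOX9, a factor of progenitor cells in the mammary epithelium, was highest under the combination. Its normalized CPM was 29.9 and 26.6 with vehicle, 37.7 and 29.1 with EC359, 40.9 and 42.0 under vorinostat, and 73.4 and 86.1 under the combination. Both combination libraries lay above all others, while the vehicle and EC359 libraries overlapped. SOX9 rose 2.82-fold from vehicle to the combination, by 1.50 ± 0.15 on the log2 scale (adjusted p = 1.8e-05, edgeR), and 2.38-fold from EC359 to the combination, by 1.25 ± 0.14 (adjusted p = 5.6e-05). Both calls held in every alternative fit. Between vorinostat and the combination the log2 difference was 0.94 ± 0.14 (adjusted p = 0.0018, edgeR), between vehicle and vorinostat 0.55 ± 0.15 (adjusted p = 0.0083), and between vehicle and EC359 0.24 ± 0.15 (adjusted p = 0.29). The gene lies at chr17:70117161-70122557 on the plus strand of GRCh37, with a canonical transcript of 3931 bases in 3 exons, and its mean level per kilobase went from above 46.2% of tested genes with vehicle to above 71.0% with the combination.

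**Figure D3:**
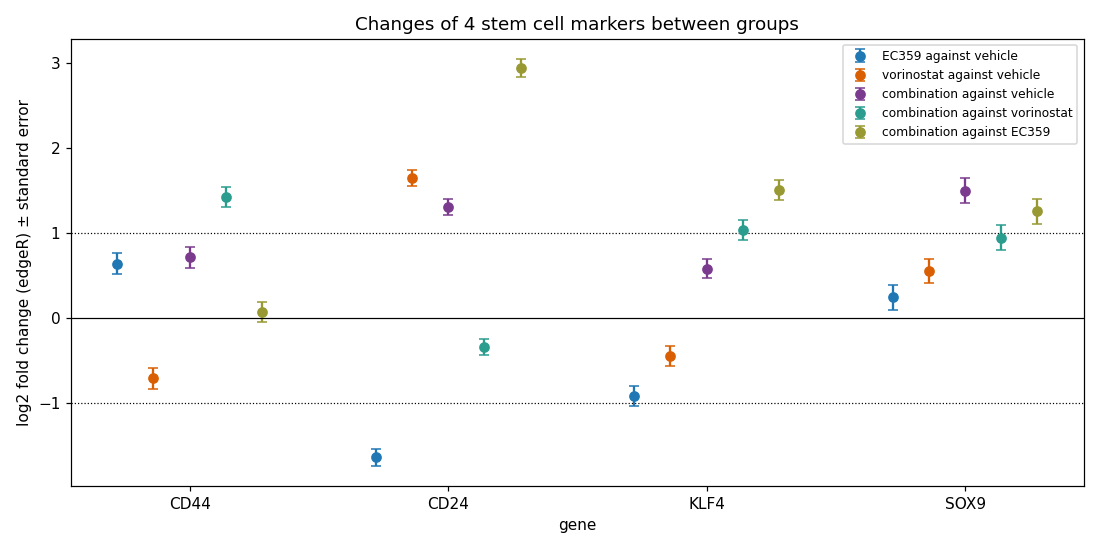
Log2 fold change from edgeR (y axis, points) with its standard error (bars) for CD44, CD24, KLF4 and SOX9 (x axis) in 5 comparisons (colors), with the fold limit of 1 as dotted lines. The largest change was the 2.94 of CD24 between EC359 and the combination, and CD24 was the one gene of the 4 past the limit for either single drug against vehicle.

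Whether the combination equaled the sum of both single-drug changes on the log2 scale was tested as an interaction. For KLF4 the single-drug changes summed to -1.38, whereas the combination stood at 0.58, a departure of 1.95 ± 0.17 (adjusted p = 0.00031, edgeR). For CD24 the changes of opposite sign summed to 0.01, whereas the combination stood at 1.30, a departure of 1.29 ± 0.14 (adjusted p = 0.001, edgeR). These were the 2 of 7 tested markers called at an adjusted p under 0.01, against 2.1% of all tested genes. That share rested on single libraries: in place of 288 genes, 1420 and 1437 were called without EC359 replicate 1 or 2, and 56 to 71 without any 1 of the other 6 libraries. The KLF4 call held in every alternative fit. The CD24 call did not hold when vehicle replicate 1 (departure 1.28, adjusted p = 0.012, edgeR), vehicle replicate 2 (1.29, 0.012), vorinostat replicate 1 (1.24, 0.022), vorinostat replicate 2 (1.23, 0.020) or combination replicate 1 (1.16, 0.014) was left out. For CD44 the sum was -0.07 and the combination 0.71, a departure of 0.78 ± 0.17 (adjusted p = 0.029, edgeR) that was called without the filter on low counts (0.0094), with DESeq2 (0.0046), with the replicate numbers as a block after exchanging those of the combination (0.0055, a fit chosen after seeing the data), without EC359 replicate 1 (1.5e-05) and without EC359 replicate 2 (0.00079). For SOX9 the sum was 0.80 and the combination 1.50, a departure of 0.70 ± 0.20 (adjusted p = 0.079, edgeR) that was called only without EC359 replicate 1 (0.90, adjusted p = 0.0024). In these 4 genes the combination stood above the sum. In the other 3 tested markers, which had few reads, it stood below. The departures were -3.34 ± 2.24 for ALDH1A1, -1.03 ± 1.64 for PROM1 and -0.46 ± 0.70 for BMI1, none of them called.

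**Figure D4:**
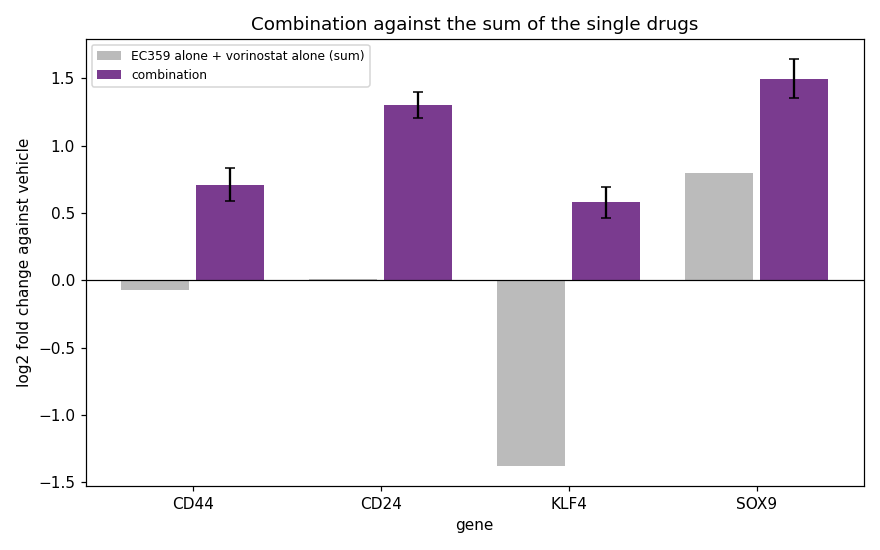
Sum of the log2 fold changes of the single drugs against vehicle (grey bars) and log2 fold change of the combination (purple bars, with standard error) for CD44, CD24, KLF4 and SOX9 (x axis). The gap between the bars is the interaction, 1.95 for KLF4, 1.29 for CD24, 0.78 for CD44 and 0.70 for SOX9.

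The aldehyde dehydrogenases that mark stem-like breast cells were close to the detection limit. A count of 3 reads, the most that a count of 0 allows, corresponded to 0.124 to 0.154 normalized CPM in these libraries. ALDH1A1, which oxidizes retinal to retinoic acid, had 2 and 1 reads with vehicle, 33 and 1 with EC359, 28 and 5 under vorinostat, and 2 and 28 under the combination. Each treated group thus held 1 library of 28 to 33 reads and 1 of 1 to 5, and no comparison was called (adjusted p = 0.12 to 0.98, edgeR). The gene passed the filter on low counts only through those single libraries. The liver gene ALB was likewise uneven, with 1 and 1, 71 and 0, 0 and 57, and 7 and 11 reads in the same order, so it was high together with ALDH1A1 in 1 of the 3 libraries. Its part in the ALDH1A1 counts was not tested. ALDH1A3, the other retinal-oxidizing enzyme of the pair, had 0 to 4 reads in every library. Of its canonical transcript, 49.4% is overlapped by ALDH1A3-AS1 on the opposite strand.

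PROM1, a pentaspan protein of membrane protrusions, had 4 and 1 reads with vehicle, 3 and 5 with EC359, 16 and 10 under vorinostat, and 1 and 17 under the combination. The vorinostat libraries lay above the vehicle and EC359 libraries, and the combination spread over both, with no comparison called (adjusted p = 0.097 for vorinostat against vehicle, edgeR). BMI1 had 28 and 20, 26 and 17, 13 and 28, and 15 and 8 reads in the same order. The combination libraries held fewer reads than the vehicle libraries, at 0.588 ± 0.25 against 1.13 ± 0.27 normalized CPM (SD, n = 2), a log2 difference of -0.93 ± 0.51 (adjusted p = 0.13, edgeR). The canonical BMI1 transcript shares 28.3% of its bases on the same strand with the readthrough gene COMMD3-BMI1, listed at 0 in all 8 libraries, and reads on shared bases can be left out as ambiguous, so its low level is uncertain. This share is from the GRCh37 annotation used here, and the NCBI RefSeq models that the paper names for counting were not examined for it.

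The pluripotency factors other than KLF4 gave almost no reads. SOX2, a partner of OCT4 at its targets, had 2 reads in vorinostat replicate 2, 1 read in combination replicate 1 and 0 in the other libraries. POU5F1 had 0 reads in all 8 libraries, which allows up to 3 counts in each. For POU5F1 this limit is weak, since 71.0% of the 50-base windows of its canonical transcript have an exact copy elsewhere in the genome. Reads aligned at more than 1 place were not counted. The annotation lists POU5F1B and 6 pseudogenes by name, but which loci hold the copied windows was not examined. For SOX2 the share of copied windows was 2.52%, for BMI1 7.08% and for CD44, SOX9, ALDH1A1 and ALDH1A3 0%. Intervals and limits from read counts cover counting error only.

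**Figure D5:**
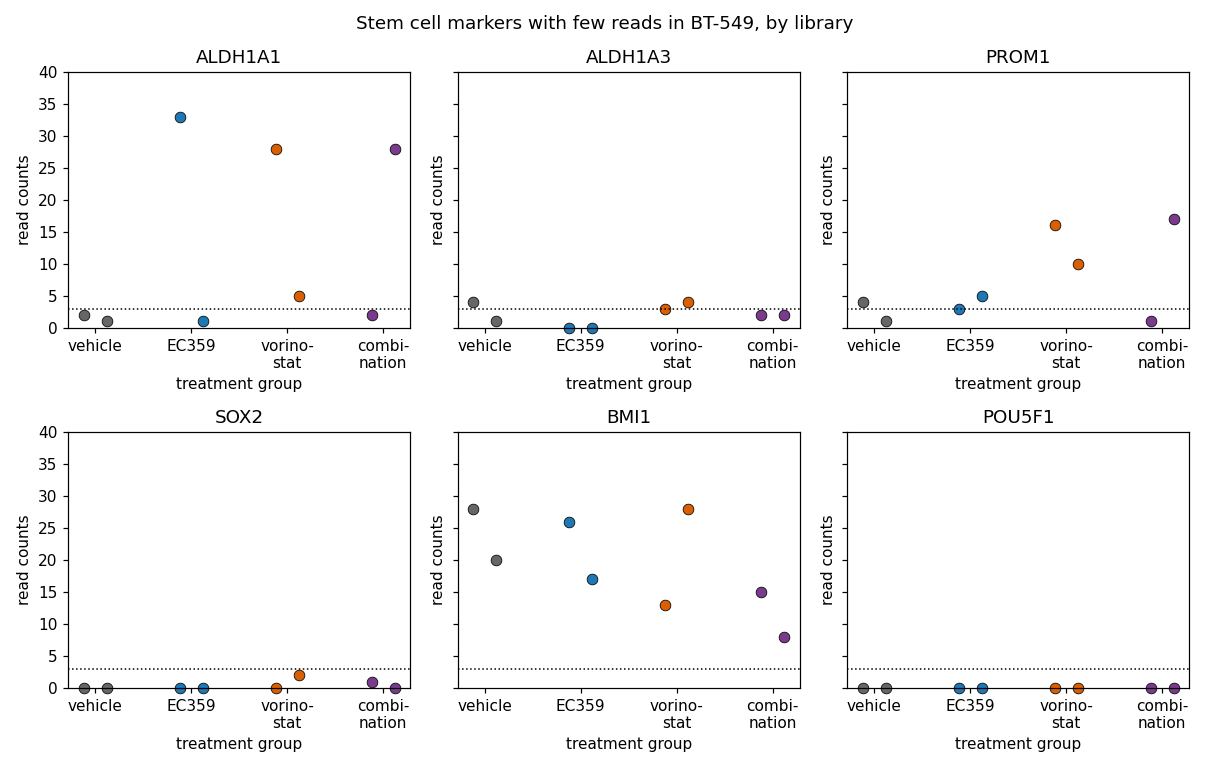
Read counts (y axis) of the 6 markers with few reads in each library (points) of the 4 treatment groups (x axis), with 3 reads as a dotted line. ALDH1A1 had 1 library of 28 to 33 reads in each treated group, and POU5F1 had 0 reads in all 8 libraries.

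Of 15 other surface markers of stem-like breast and mesenchymal cells 12 were tested, and vorinostat raised 5 and lowered 1 against vehicle, with a median log2 change of 0.58 over the 12 and 0.03 over all tested genes. The share of all tested genes called was 30.1% under vorinostat and 3.67% under EC359. NGFR, the low-affinity neurotrophin receptor, rose from 2.35 to 181 normalized CPM, a log2 change of 6.27 ± 0.13 (adjusted p = 2e-08, edgeR). MCAM (CD146) rose by 3.47 and PROCR, the protein C receptor of mammary stem cells, by 2.07, while ALCAM (CD166) fell by 1.17 from 2123 to 947 normalized CPM. The remaining 2 that rose, the drug efflux pump ABCG2 and the adhesion protein EPCAM, had 3 to 4 reads in the vehicle libraries and at most 75 and 83 in any library, and are named because they complete the count. Under EC359 1 of the 12 was called, NT5E (CD73), an ectoenzyme that makes adenosine. NT5E, like CD44, had its lowest level under vorinostat and lay above vehicle wherever EC359 was given, with mean normalized CPM of 289 in vehicle cells, 933 under EC359, 155 under vorinostat and 412 under both drugs. It rose by 1.69 under EC359 (adjusted p = 6.1e-06, edgeR) and by 1.41 when EC359 was added to vorinostat (adjusted p = 1.4e-05). The interaction was called in 1 of the 12, NGFR, against 2.1% of all tested genes. There the combination stood below the sum of the single drugs, by a departure of -1.17 ± 0.17 (adjusted p = 0.0049, edgeR). That call was lost with the replicate numbers as a block and without any 1 vehicle, vorinostat or combination library (-1.28 to -1.09).

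Among 18 other pluripotency and self-renewal factors, 11 were tested, and NANOG, LIN28B, SALL4, PRDM14, ZFP42, DPPA4 and UTF1 did not pass the filter. Vorinostat raised 5 and lowered 1 of the 11, against 30.1% of all tested genes called. NES, an intermediate filament of neural progenitors, rose from at most 4 reads to 99 to 148 reads, KLF5 rose by 1.85 and KLF2 by 1.74, whereas the RNA-binding regulator MSI2 fell by 1.73. The other 2 that rose, LIN28A and TFCP2L1, had few reads. KLF2 and KLF5 are the KLF family members that overlap KLF4 in embryonic stem cells. Both had a higher mean than vehicle under every treatment, where KLF4 was lower under each single drug. For KLF5 the EC359 libraries were uneven, with 119 and 274 reads against 118 and 128 with vehicle (adjusted p = 0.15, edgeR). KLF2 rose under EC359 by 2.08 ± 0.15 (adjusted p = 3.9e-05, edgeR), where KLF4 differed by -0.92. When EC359 was added to vorinostat, 3 of the 11 rose, KLF5 by 1.39, MYC by 1.22 and TBX3 by 1.05, the last named to complete the count. In that comparison 4.25% of all tested genes were called. MYC, the fourth of the classical reprogramming factors, went from 195.5 normalized CPM with vehicle to 768 with the combination. The TBX3 difference was just under the fold limit without vorinostat replicate 1 (0.9999) or combination replicate 2 (0.927), and with total-count scaling (0.966). The KLF5 call was lost without vorinostat replicate 1 (1.34, adjusted p = 0.036, edgeR), vorinostat replicate 2 (1.35, 0.035), combination replicate 1 (1.41, 0.024) or combination replicate 2 (1.29, 0.029).

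Of 17 other aldehyde dehydrogenases, 15 were tested, and vorinostat raised 3 and lowered 3. Among all tested genes 30.1% were called. ALDH6A1, of valine breakdown in mitochondria, rose by 2.71, ALDH4A1, of proline breakdown, by 1.66, and ALDH2, which clears acetaldehyde, by 1.13. ALDH1L2, a mitochondrial enzyme of folate metabolism, fell by 1.89, ALDH3B1 by 1.66 and ALDH5A1 by 1.07. ALDH2 and ALDH5A1 are named to complete the counts, and the ALDH5A1 call was lost without vehicle replicate 2 (-1.06, adjusted p = 0.011, edgeR) or vorinostat replicate 1 (-0.94, 0.021). The family median was 0.13 under vorinostat and -0.55 under the combination, against 0.03 and 0.07 over all tested genes. ALDH3B1, which acts on lipid aldehydes, had the lowest level under the combination, at 2.25 ± 0.94 normalized CPM against 19.6 ± 0.78 with vehicle (SD, n = 2), a log2 change of -3.12 ± 0.26 (adjusted p = 6.3e-06, edgeR). Any of these enzymes may add to a total aldehyde dehydrogenase activity, which was not measured.

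Of 18 other genes of Polycomb repressive complex 1 and its target CDKN2A, all 18 were tested. Vorinostat raised PCGF5 by 3.18, CBX7 by 1.53 and RYBP by 1.02, and lowered PCGF2 by 1.22, and 14 of the 18 were not called. Over all tested genes 30.1% were called under vorinostat and 3.67% under EC359. The RYBP call was lost without vorinostat replicate 2, where its log2 change was 0.991. PCGF2 is the subunit most like BMI1 and occupies the same place in the complex. Its mean level was 51.9 ± 5.77 normalized CPM with vehicle and 22.2 ± 0.25 with vorinostat (SD, n = 2). Under EC359 1 of the 18 was called, PHC2, at 1.06, a call lost without vehicle replicate 1 (1.03, adjusted p = 0.014, edgeR), vehicle replicate 2 (1.10, 0.011) or EC359 replicate 2 (0.879). Under the combination 2 of the 18 rose and 1 fell, where 34.8% of all tested genes were called. The 1 that fell was CDKN2A, the locus that BMI1 silences in stem cells, by 1.71 (adjusted p = 2.5e-06, edgeR). CDKN2A is named outside the fixed rule for its role, after its values were seen.

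Of 19 genes of hyaluronan, the ligand of CD44, and of CD44 partners 13 were tested, and vorinostat raised 4 and lowered 3. The share called over all tested genes was 30.1%. The hyaluronidase HYAL1 rose from 2 to 5 reads with vehicle to 363 to 466, by 6.82 ± 0.32 (adjusted p = 4.5e-07, edgeR), and HYAL3 rose by 1.12. The hyaluronan synthase HAS2 fell by 2.56, KIAA1199 (CEMIP), a hyaluronan-binding protein of hyaluronan breakdown, fell by 2.81, and MSN (moesin), which links CD44 to the actin skeleton, fell by 1.82. EZR and SPP1, a second linker and a second ligand, completed the 4 that rose.

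HAS3, another hyaluronan synthase, ordered the groups as CD44 did. Its mean normalized CPM was 50.7 in vehicle cells, 310 under EC359, 25.7 under vorinostat and 392 under both drugs. It rose under EC359 by 2.61 ± 0.09 (adjusted p = 1.2e-06, edgeR) and when EC359 was added to vorinostat by 3.93 ± 0.10 (adjusted p = 1.3e-07), and both calls held in every alternative fit. KIAA1199 had 45.8, 15.1, 6.50 and 14.5 normalized CPM in the same order, below vehicle under every treatment. In these 2 of 13 genes the combination departed from the sum of the single drugs, against 2.1% of all tested genes. That share rested on single libraries. The departure was 1.32 ± 0.13 for HAS3 (adjusted p = 0.00072, edgeR) and 2.75 ± 0.27 for KIAA1199 (adjusted p = 0.00083). The first was not called without vorinostat replicate 1 (1.28, adjusted p = 0.015, edgeR), vorinostat replicate 2 (1.25, 0.016) or combination replicate 1 (1.19, 0.011).

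Of 17 SOX genes other than SOX9 and SOX2, 8 were tested. Under vorinostat 30.1% of all tested genes were called. Vorinostat lowered SOX12 by 2.26, from 149 to 31.2 normalized CPM, and SOX18, a factor of vessel endothelium, by 1.72, and raised SOX8, which belongs to the same subgroup as SOX9 and had few reads. SOX18 was also the 1 of the 8 called under EC359, at -2.16 (adjusted p = 0.00078, edgeR), against 3.67% of all tested genes. That call was lost in a fit of the 4 libraries compared (-2.14) and without vehicle replicate 2 (-2.02). Under the combination SOX18 differed from vehicle by -2.03 (adjusted p = 0.00013, edgeR). When EC359 was added to vorinostat, none of the 8 was called, against 4.25% of all tested genes, and their median log2 difference was 0.16. SOX12 differed by -0.33 (adjusted p = 0.18, edgeR), and SOX9 by 0.94 (adjusted p = 0.0018), also short of a call.

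The genes whose pattern over the 8 libraries was most like that of a marker were found by the root mean square difference of log2 CPM, each gene centered on its own mean, among 9975 genes of sufficient level. For CD44 they were ICAM1, an adhesion receptor for leukocytes (0.07), SPRED2, an inhibitor of the RAS pathway (0.09), and TNRC6C (0.10), where CD44 itself varied with an SD of 0.581 over the libraries. For CD24 they were DKK1, a secreted inhibitor of WNT signaling (0.11), ASAP3 (0.19) and DNAJC6 (0.20), against an SD of 1.29. DKK1 had 146 normalized CPM in vehicle cells, 47.8 under EC359, 471 under vorinostat and 396 under both drugs, the order of CD24. For SOX9 they were WIPF2 (0.07), BLZF1 and ZNF585A (both 0.08). The nearest genes to KLF4 were farther off, at 0.22 for ZNF583 and LPIN1 and 0.23 for HMGCS1, with a similar SD of 0.562 for KLF4 itself.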

How the data were processed

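Total RNA libraries of BT-549 cells (TruSeq, 50-base single-end reads) were aligned by the authors to hg19 with TopHat2 (2.0.8b, per the submitters' processing notes) and counted per gene with HTSeq. The deposited values are raw read counts per gene, with no normalization. The HTSeq version and strand setting are not given in the sources used here, and reads aligned at more than 1 place, reads on no gene and ambiguous reads stand in 5 summary lines (37.9% to 42.0% of each file's total), which were left out. The 8 libraries held 85.1% to 88.1% of uniquely aligned reads on genes.

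Counts were tested with edgeR (4.0.16, R 4.3.3): TMM scaling, the filterByExpr filter by group, 1 mean per group over all 8 libraries and the quasi-likelihood test, with Benjamini-Hochberg adjustment over 13694 genes. Calls used the study's limits, an adjusted p below 0.01 together with a log2 change beyond 1 either way, and the adjusted p alone for the interaction. On simulated counts for vorinostat against vehicle (13694 genes), 94.5% of 200 genes changed by 2 on the log2 scale were recovered and 0 unchanged genes were called. The simulation gave all genes a common dispersion of 0.0135 and changed no others, whereas 30.1% of genes were called in the data. It therefore does not give the error rate in these libraries. Normalized CPM are counts scaled to the TMM-adjusted library size. Levels per kilobase used canonical transcript lengths of GENCODE 44 lifted to GRCh37, and gene positions and overlaps come from it. The paper names NCBI RefSeq as the annotation for its counts, where the overlaps may differ. Alternatives were RLE and total-count scaling, no filter, a stricter filter (10 counts in every library of a group), DESeq2 (1.42.0), replicate numbers as a block, fits on 4 libraries, other limits and leaving out each library. Figures were drawn with matplotlib (3.10.9).

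Same-numbered libraries of different groups deviated together with correlations of -0.173 to 0.231, so the numbers were not taken as pairs. The markers and gene lists were chosen with earlier results of these data known. Besides the markers, the genes named are, per list, up to 4 of the largest called changes under vorinostat, up to 2 under EC359 and up to 2 when EC359 was added to vorinostat (average log2 CPM of at least 1), the defining markers of the line, and the 3 genes closest in pattern to each called marker (average log2 CPM of at least 3). Other names are marked where they occur.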

Additional observations from a re-analysis of the deposited data

Results flagged for a closer look

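For 2 markers the effect of 1 drug differed with the presence of the other, by the interaction test in edgeR. For KLF4 the combination exceeded the summed single-drug effects by 1.95 on the log2 scale (adjusted p = 0.00031, edgeR), and all 4 libraries with a single drug lay below both vehicle libraries while both combination libraries lay above them. For CD24 the departure was 1.29 (adjusted p = 0.001, edgeR), and between the groups without and with EC359 its mean went from 52.0 to 16.8 normalized CPM without vorinostat and from 163 to 128 with it. The CD24 call did not hold when vehicle replicate 1 or 2, vorinostat replicate 1 or 2, or combination replicate 1 was left out. No group had enough libraries for a check of single outlying samples.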

How the results depend on the processing

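With 2 libraries a group, the fit shares their spread over all groups, so a lone library left in a group is assumed to vary like the others. Of 652 alternative values for the 7 tested markers, 616 kept their direction and their side of the call limits. Without the fold limit, 3 markers were past adjusted p for EC359 against vehicle, 4 for vorinostat against vehicle and 4 for the combination against vehicle. For the combination against vorinostat 1 marker in place of 2 was called with RLE scaling, with total counts, without the filter and with DESeq2, since KLF4 sat at the fold limit. Leaving out 1 library gave 1 to 2 called markers for EC359 against vehicle, 1 to 2 for the combination against vorinostat and 1 to 4 for the interaction.

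With the replicate numbers as a block, the called markers numbered 1 for EC359 and 1 for vorinostat against vehicle, 2 for the combination against vehicle, 2 against vorinostat, 3 against EC359 and 2 for the interaction, so the block changed no call of a marker. Over all tested genes the interaction had 189 calls with the block and 288 without it. The correlations of -0.173 to 0.231 between same-numbered libraries gave no clear pairing, and with 2 libraries a group they cannot show that there was none. When the 2 combination libraries swapped numbers, an alternative chosen after seeing the data, 2 markers were called for vorinostat and 3 for the combination against vehicle, ALDH1A1 being added in both, and 3 for the interaction, CD44 being added (0.79).

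Directions turned only where reads were few or groups were close. Leaving out 1 library at a time, the log2 change of ALDH1A1 ranged from -0.43 to 4.17 for EC359, from -2.94 to 1.78 for the combination against vorinostat, from -2.84 to 3.75 for the combination against EC359 and from -6.23 to 0.36 for the interaction, and with the replicate block it turned to 0.41 for the combination against vorinostat. PROM1 ranged from -0.028 to 1.86 for EC359, from -1.16 to 3.14 for the combination against vehicle, from -3.48 to 0.46 against vorinostat and from -1.80 to 2.14 against EC359. BMI1 ranged from -0.44 to 0.064 for EC359 and from -0.76 to 0.072 for vorinostat, and CD44 from -0.13 to 0.27 for the combination against EC359. The causes of these turns were not tested. Another scaling shifted the median of all genes by -0.0881 on the log2 scale at the most.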
